A study of Mus musculus with 10 samples.

Results

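Tumour necrosis factor (TNF), its receptors and the genes of NF-kB signalling that feed back on it were followed as RNA in mouse kidney. The 10 genes were Tnf, Tnfrsf1a, Tnfrsf1b, Traf1, Birc3, Nfkb1, Nfkb2, Relb, Nfkbia and Tnfaip3, chosen by name from 33714 genes in a bulk RNA table, of which 17616 had enough counts to be tested. All 10 were among those tested. In the single-cell tables, 10 of 10 were listed among 15340 genes for an injured kidney, and 9 among 13217 genes for an uninjured kidney, where Tnf had no row.

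Mice were studied at 8 weeks of age, and injured kidneys were taken 2 weeks after one renal artery had been closed for 15 minutes. The mice of the injury arms were C57/BL6 given tamoxifen (WT TAM), Pax8creERT2;Ihhfl/fl not given tamoxifen (TG VEH), or Pax8creERT2;Ihhfl/fl given tamoxifen (TG TAM, called Ihh-deleted here), so both TG arms carry the floxed Ihh allele and the Cre transgene. Pax8 drives this tamoxifen-activated Cre in renal tubule epithelium. Each arm gave 4 libraries of the injured kidney and 4 of the contralateral kidney. Kidneys that remained after the other one had been removed (nephrectomy, 3 libraries used) and uninjured kidneys (2 libraries used), all C57/BL6, completed the 29 libraries used. The labels do not say that numbered libraries are separate animals, so p-values measure only the spread between libraries. The single-cell libraries came from live-sorted cells of 1 injured and 1 uninjured C57/BL6 kidney.

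TNF is a cytokine made mostly by leukocytes, and it signals through the receptors TNFR1 (Tnfrsf1a), found on most cells, and TNFR2 (Tnfrsf1b), found mainly on leukocytes and some endothelium. Receptor engagement activates the kinase that removes the inhibitor IkB-alpha (Nfkbia), and Rel dimers then enter the nucleus. The genes for IkB-alpha, A20 (Tnfaip3), c-IAP2 (Birc3), TRAF1 and the subunits p105 (Nfkb1), p100 (Nfkb2) and RelB are themselves targets of these dimers, so that their RNA is often used as a readout of the pathway.

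Total counts per library ran from 0.592 M to 37.9 M with a median of 23.6 M, and the shallowest was uninjured library 2. Uninjured libraries 1 and 4 and nephrectomy library 3 held a heart profile and were left out. Of the libraries used, nephrectomy library 1 held heart markers at a sum of 636.0 CPM, and the others at most 18.9 CPM, against at least 60900 CPM in those left out. Ihh, the gene to be deleted, stood at 4.58 to 6.09 counts-per-million (CPM) in injured Ihh-deleted kidneys and at 5.98 to 15.4 CPM in injured kidneys of the intact arms. Its difference did not pass the test (log2 -0.72, adjusted p = 0.083, edgeR quasi-likelihood test with Benjamini-Hochberg adjustment). In contralateral kidneys of the deleted arm Ihh ranged from 3.44 to 17.2 CPM. The arm is therefore named by its label, and RNA alone did not establish the deletion. No listed kidney marker was at 0 over the 29 libraries. Proximal tubule markers summed to 29710 to 40830 CPM in contralateral kidneys and 5127 to 29970 CPM in injured kidneys.

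All 10 genes rose in injured kidneys relative to contralateral kidneys when the 3 arms were averaged, while 39% of all genes tested rose in that comparison. The rise ran from log2 0.41 for the receptor gene Tnfrsf1a to log2 3.17 for the ligand gene Tnf, against a median of 0.05 over all genes. In CPM the 12 injured and 12 contralateral libraries did not overlap for any of the 10 genes, which held for 11.2% of all genes in this direction. Within each arm all 10 rose as well, with a background of 32.1% of genes in the WT TAM arm, 32.7% in the TG VEH arm and 19.3% in the Ihh-deleted arm. The test was edgeR's quasi-likelihood test on gene counts with Benjamini-Hochberg adjustment over 17616 genes and a threshold of 0.05. In bulk RNA, more or fewer cells of a type and more or less RNA per cell cannot be told apart.

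**Figure D1:**
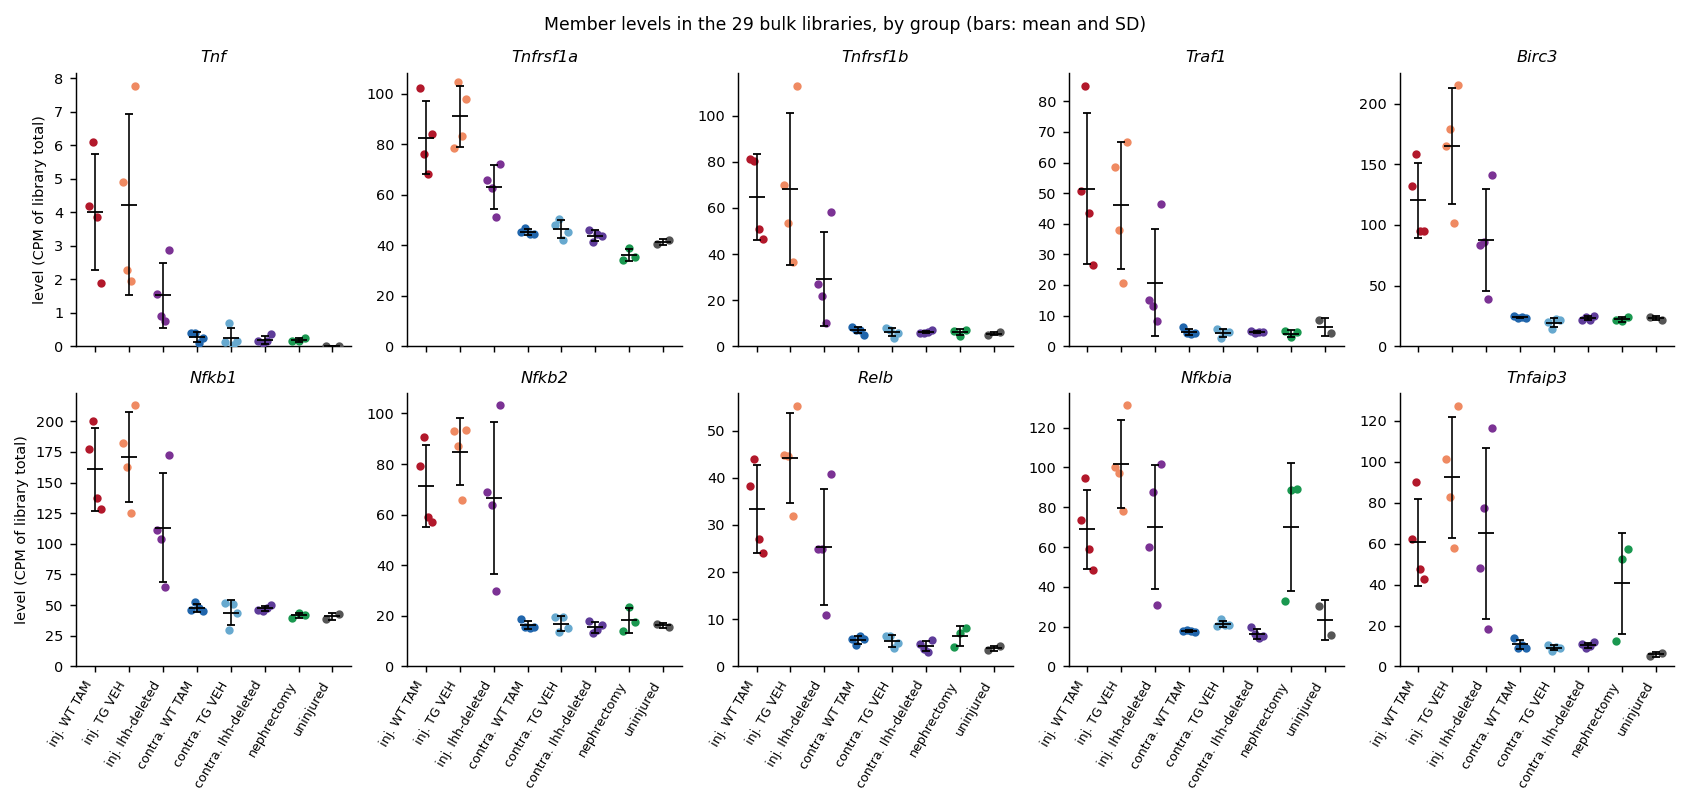
Each panel plots 1 gene in CPM on a linear axis by group, with 1 point per library and bars for mean and SD. The injured libraries lie above the contralateral libraries for all 10 genes, from 51.3 to 104.5 CPM against 41.4 to 50.2 CPM for Tnfrsf1a.

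Tnf (chr17:35199381-35202007, minus strand, GRCm38) was the rarest of the 10 transcripts. Injured kidneys held 4.20, 6.11, 3.87 and 1.89 CPM in the WT TAM arm, 4.89, 2.28, 1.95 and 7.77 CPM in the TG VEH arm, and 1.57, 0.895, 0.763 and 2.88 CPM in the Ihh-deleted arm. Contralateral kidneys held 0.406, 0.404, 0.0849 and 0.236 CPM, then 0.128, 0.686, 0.0370 and 0.157 CPM, and 0.165, 0.0855, 0.143 and 0.355 CPM in the same order of arms. Every injured library was thus above every contralateral library, although the lowest injured value was close to the highest contralateral one. The 12 contralateral libraries held 80 Tnf counts together and the 12 injured libraries 847, and both uninjured libraries held 0 counts. The rise was log2 3.17 (SE 0.38, adjusted p = 1.04e-07, edgeR quasi-likelihood test), and in single arms it was 3.36, 3.38 and 2.78 for WT TAM, TG VEH and Ihh-deleted.

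The receptor genes differed in level and in the size of their rise. Tnfrsf1a (chr6:125349362-125362484, plus strand), the receptor with a death domain, stood at 102, 75.9, 68.0 and 84.1 CPM in injured WT TAM kidneys, 78.6, 104.5, 83.1 and 97.7 CPM in TG VEH kidneys and 65.9, 62.5, 51.3 and 72.3 CPM in Ihh-deleted kidneys. All contralateral libraries lay between 41.4 and 50.2 CPM. Its rise was log2 0.41 (SE 0.06, adjusted p = 3.49e-06, edgeR quasi-likelihood test), the smallest of the 10, and 0.33 with an adjusted p of 0.0276 in the Ihh-deleted arm alone. That last call was lost without injured library 1 or 4 or contralateral library 2 or 4 of the arm. Tnfrsf1b (chr4:145213463-145246870, minus strand) rose by log2 2.58 (SE 0.21, adjusted p = 3.3e-10, same test), from 3.78 to 8.52 CPM in contralateral libraries. Its injured libraries held 81.3, 80.5, 50.8 and 46.4 CPM in the WT TAM arm, 69.9, 53.3, 36.5 and 113 CPM in the TG VEH arm, and 26.8, 21.9, 9.96 and 58.1 CPM in the Ihh-deleted arm. Scaled for transcript length, Tnfrsf1a had a mean of 92.9 transcripts-per-million (TPM) in injured kidneys and 48.7 in contralateral kidneys, and Tnfrsf1b 33.8 and 3.92 TPM. Tnfrsf1a thus stayed the more abundant receptor transcript on this scale in both kinds of kidney.

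Traf1 and Birc3 encode proteins recruited to TNF receptor complexes, and both have anti-apoptotic roles. Traf1 (chr2:34941750-34961772, minus strand) was measured at 50.8, 85.0, 43.5 and 26.5 CPM in injured WT TAM kidneys, 58.6, 38.02, 20.6 and 66.9 CPM in TG VEH kidneys and 15.0, 13.1, 8.31 and 46.5 CPM in Ihh-deleted kidneys. Contralateral libraries held 2.66 to 6.17 CPM, and the rise was log2 2.61 (SE 0.23, adjusted p = 1.36e-09, edgeR quasi-likelihood test). Birc3 (chr9:7848699-7873186, minus strand) stood at 132.2, 158.8, 94.8 and 94.9 CPM, then 165.0, 178.9, 101.2 and 215.0 CPM, and 83.5, 85.8, 39.2 and 141.5 CPM in the same order of arms. With 13.9 to 25.0 CPM in contralateral libraries, Birc3 rose by log2 2.07 (SE 0.13, adjusted p = 5.94e-12, same test). Per transcript length Birc3 was the most abundant of the 10 in injured kidneys, with a mean of 169.5 TPM against 25.3 TPM in contralateral kidneys.

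Among the subunit genes, Nfkb2 and Relb, whose products form the dimer of the alternative route, had larger estimated rises than Nfkb1. Nfkb1 (chr3:135584655-135691547, minus strand) encodes p105, the precursor of p50, and stood at 177.6, 200, 137.3 and 128.1 CPM in injured WT TAM kidneys, 181.9, 162.6, 125.5 and 213.5 CPM in TG VEH kidneys and 110.9, 104.3, 64.8 and 172.7 CPM in Ihh-deleted kidneys. Contralateral libraries held 29.7 to 52.5 CPM, so that the groups did not overlap, and the rise was log2 1.28 (SE 0.10, adjusted p = 1.52e-10, edgeR quasi-likelihood test). Nfkb2 encodes p100, which holds RelB in the cytoplasm until it is processed to p52. Nfkb2 (chr19:46304320-46312385, plus strand) held 79.0, 90.7, 59.0 and 57.0 CPM, then 93.2, 87.0, 65.6 and 93.6 CPM, and 69.0, 63.9, 29.8 and 103.4 CPM, against 13.1 to 19.5 CPM in contralateral libraries. Relb (chr7:19606217-19629438, minus strand) held 38.3, 44.0, 27.0 and 24.1 CPM, then 44.8, 44.7, 31.96 and 55.3 CPM, and 24.8, 25.0, 10.8 and 40.8 CPM, against 3.16 to 6.46 CPM. The rises were log2 1.81 (SE 0.13, adjusted p = 4.47e-11) for Nfkb2 and 2.32 (SE 0.17, adjusted p = 6.63e-11) for Relb in the same test; the differences between these genes were not tested. Counts were spread over several transcripts of a gene: 1 transcript held 96.8% of Tnf, 97.2% of Tnfrsf1a and 99.9% of Tnfrsf1b counts, whereas Nfkb2 counts were split as 72.0% and 28.0% and those of Nfkbia as 88.4% and 11.6%. Nfkb2 shares exon positions with Psd and AC114539.1 on the opposite strand, and the strandedness of counting is not given in the sources used here.

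The inhibitor genes rose together with the subunits. Nfkbia (chr12:55489410-55492647, minus strand) encodes IkB-alpha and stood at 73.7, 94.5, 58.9 and 48.4 CPM in injured WT TAM kidneys, 100, 97.4, 78.3 and 131.3 CPM in TG VEH kidneys and 60.1, 87.9, 30.7 and 101.6 CPM in Ihh-deleted kidneys. Tnfaip3 (chr10:19000910-19015657, minus strand) encodes A20, a ubiquitin-editing enzyme that ends the receptor signal. It stood at 62.1, 90.0, 47.8 and 42.8 CPM, then 101.6, 82.9, 57.7 and 127.3 CPM, and 48.3, 77.4, 18.3 and 116.4 CPM in the same order. Contralateral libraries held 14.4 to 23.8 CPM of Nfkbia and 7.67 to 14.0 CPM of Tnfaip3, below all injured libraries. Nfkbia rose by log2 1.71 (SE 0.17, adjusted p = 4.03e-09) and Tnfaip3 by log2 2.45 (SE 0.23, adjusted p = 3.23e-09) in edgeR's quasi-likelihood test. With another scaling, by library totals only, the median of all genes moved from 0.05 to 0.42, and all 10 still rose, with Tnfrsf1a at 0.79.

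Of the genes that rose together, 3 carry the NF-kB consensus decamer close to an annotated start, and these stretches are shown because the decamer is the site that Rel dimers bind. The search covered the 250 bases before each start in RefSeq's GRCm38.p6 promoter windows, on both strands, and capitals mark the matching decamer as it reads on the strand of the gene. In Nfkbia the match begins 29 bases before the start (chr12:55492657-55492686), and in Tnfaip3 125 and 12 bases before it (chr10:19015516-19015545 and chr10:19015411-19015432, both in an intron of the GENCODE gene model). Nfkb2 has matches 39 and 11 bases before its first start (chr19:46304688-46304717 and chr19:46304716-46304736), where the match at 39 overlaps another at 38, and single matches 236 and 225 bases before starts of its other windows (chr19:46305449-46305478 and chr19:46305695-46305724). The Nfkb2 stretches also lie inside the GENCODE gene model, the one at 236 in an intron and the others in an exon of a transcript.
Nfkbia: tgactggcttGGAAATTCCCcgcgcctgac
Tnfaip3, 125 before: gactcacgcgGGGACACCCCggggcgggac
Tnfaip3, 12 before: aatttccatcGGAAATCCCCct
Nfkb2, 39 before: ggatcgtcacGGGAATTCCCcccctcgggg
Nfkb2, 11 before: ggggccgaaaGGGGCTTTCCc
Nfkb2, 236 before: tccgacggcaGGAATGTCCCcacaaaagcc
Nfkb2, 225 before: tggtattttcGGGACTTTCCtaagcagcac
Of the 8 genes with a window, 3 held a match, and 4.48% of 26727 genes with windows did. The windows of Tnf, Tnfrsf1a, Tnfrsf1b, Traf1 and Birc3 held none, which says only that these letters are not in those windows. A match is a description of the sequence and not a measured site.

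**Figure D2:**
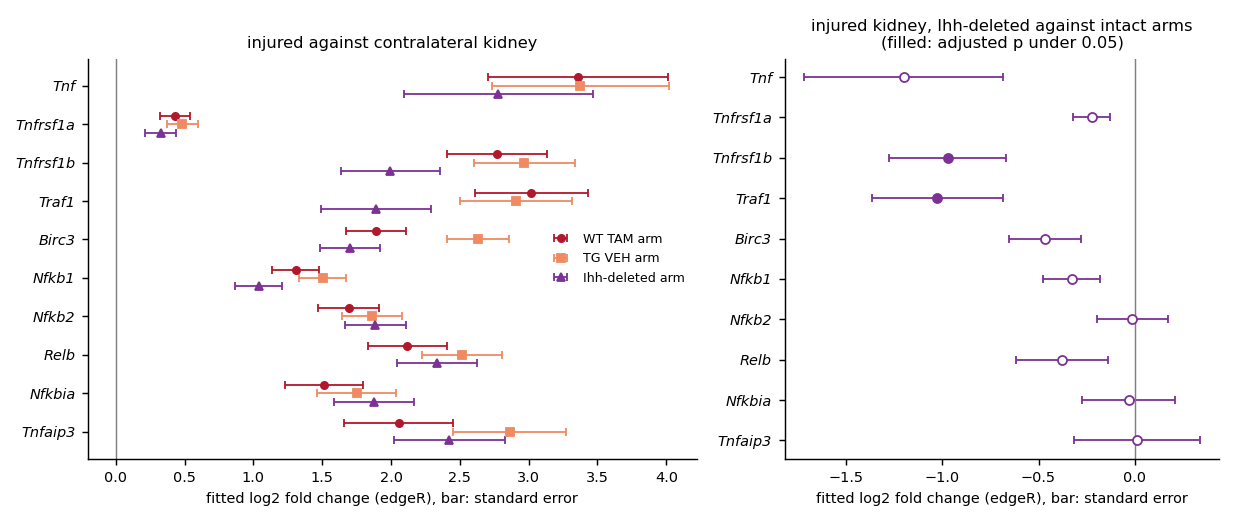
The left panel gives fitted log2 fold changes of injured against contralateral kidneys for the 10 genes in each arm, and the right panel those of Ihh-deleted against intact injured kidneys, with bars for the standard error and filled points past the threshold on the right. The values in single arms lie from 0.33 to 3.38, and those of Ihh-deleted against intact injured kidneys from -1.20 to 0.01.

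Markers of leukocytes moved with all of these rises. The 8 macrophage markers summed to 220.8 to 2479 CPM in injured libraries and 114.2 to 236.8 CPM in contralateral libraries. The 8 T cell markers summed to 18.01 to 253.5 CPM against 4.59 to 10.8 CPM, and the 4 B cell markers to 4.96 to 336.0 CPM against 2.71 to 6.56 CPM. Fibroblast and mural markers summed to 357.1 to 4361 CPM against 246.7 to 425.8 CPM. None of these markers was at 0 over the 29 libraries. Their part in the rise of the 10 genes was not tested.

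The rest of the pathway rose in part. Of 7 other Rel and IkB family genes, 6 rose and 1 fell, with a median log2 of 2.27, led by Nfkbid (3.02), Nfkbie (2.35), Rel (2.31) and Nfkbiz (2.27). The gene that fell was Nfkbib (-0.44), named here after its value was seen. Of 23 tested target genes, 21 rose and 1 fell, with a median of 2.91. The neutrophil chemokine genes Cxcl2 (5.07) and Cxcl5 (4.98), Ccl20 (4.39) and Ccl7 (4.04) rose most, and Sod2, a mitochondrial superoxide dismutase, fell (-1.21), named after its value was seen. Of 20 proximal signalling genes 9 rose and 5 fell, with a median of 0.09 close to the 0.05 of all genes. There the lymphotoxin genes Lta (4.48) and Ltb (3.08) rose most, followed by Map3k14 (1.13), which encodes the kinase NIK of the alternative route, and Traf2 (0.80). Of 12 negative regulators 7 rose and 4 fell, with a median of 0.20, led by Tnip3 (2.50), Birc2 (1.28), Tnip2 (1.27) and Tnip1 (0.84). Across all genes 39% rose and 34.7% fell, so the counts for proximal signalling genes and negative regulators are not far from that background. Gene values and medians in this paragraph are log2 fold changes from the same edgeR fit, and the lists were chosen with earlier results of these data known.

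Within injured kidneys, Tnfrsf1b and Traf1 were lower in the Ihh-deleted arm than in the intact arms, and the other 8 genes did not pass the test. Across all genes 16.6% fell in that comparison, so that 2 of 10 is near the background. Tnfrsf1b had means of 29.2 CPM (SD 20.6, n = 4) and 66.5 CPM (SD 24.8, n = 8), with log2 -0.97 (SE 0.30) and an adjusted p = 0.0155 in edgeR's quasi-likelihood test. Traf1 had means of 20.7 CPM (SD 17.4, n = 4) and 48.7 CPM (SD 21.3, n = 8), with log2 -1.03 (SE 0.34) and an adjusted p = 0.0208 in the same test. For neither gene were the ranges apart, since Ihh-deleted library 4, at 58.1 and 46.5 CPM, lay among the intact libraries. None of the 10 genes had ranges apart in this comparison, against 8.45% of all genes that were lower with ranges apart.

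The ligand Tnf had the largest estimate in this comparison without passing the threshold, at log2 -1.20 (SE 0.52, adjusted p = 0.0696, edgeR quasi-likelihood test). Birc3 was at -0.47 (SE 0.19, adjusted p = 0.0509), Tnfrsf1a at -0.22 (SE 0.10, adjusted p = 0.0722), Nfkb1 at -0.33 (SE 0.15, adjusted p = 0.0819) and Relb at -0.38 (SE 0.24, adjusted p = 0.218). Nfkb2 (-0.01, SE 0.18), Nfkbia (-0.03, SE 0.24) and Tnfaip3 (0.01, SE 0.33) had estimates near 0, with errors that leave changes of either sign possible. The call on the 2 genes rested on single libraries. Without Ihh-deleted library 2 or 3 no gene passed, and without library 1 of that arm 1 did. Leaving out Ihh-deleted library 4 gave 6, with Tnf at log2 -1.65; leaving out TG VEH library 3 gave 5, and WT TAM library 3 or 4 gave 4. Both calls were lost with all 32 libraries (Tnfrsf1b -0.98, adjusted p = 0.0989; Traf1 -1.03, adjusted p = 0.0558, same edgeR test) and with only the groups compared (-1.01, adjusted p = 0.0654; -1.05, adjusted p = 0.092), while the estimates stayed near their size. Other scalings of the same libraries gave 4 genes (RLE factors) and 6 (library totals), and DESeq2 gave 6. Ihh-deleted library 3 was the lowest of all 12 injured libraries for every one of the 10 genes. Over all genes 3527 were called without that library, against 6539 with every library. The background thus moved with the library left out, and its range over such fits is given in the closing section.

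Marker levels of other cells moved with this comparison too. Macrophage markers summed to 220.8 to 1029 CPM in injured Ihh-deleted kidneys and 663.4 to 2479 CPM in the intact arms, and T cell markers to 18.01 to 124.5 CPM and 36.6 to 253.5 CPM. Dendritic markers summed to 29.4 to 107.1 CPM and 65.2 to 239.8 CPM, B cell markers to 4.96 to 111.2 CPM and 6.92 to 336.0 CPM, and proximal tubule markers to 14220 to 29970 CPM and 5127 to 16360 CPM. The ranges were apart for fibroblast and mural markers, at 357.1 to 957.6 CPM in Ihh-deleted and 1191 to 4361 CPM in intact kidneys. Their part in the lower Tnfrsf1b and Traf1 was not tested. Among the pathway lists, 6 of 23 target genes fell and 3 rose (median log2 -0.54), with Bcl2a1b at -1.73, Ccl7 at -1.32, Bcl2a1d at -1.30 and the chemokine gene Cxcl1 at 1.71. Of 20 proximal signalling genes 3 fell and 2 rose, with Lta at -2.20, Adam17 at -0.38, Chuk at 0.79 and Cflar at 0.63. Of 12 negative regulators 2 fell, Tnip3 (-1.86) and Tnip2 (-0.46), and 2 rose, Tax1bp1 (0.44) and Itch (0.36). Of the 7 other Rel and IkB family genes 1 fell, Nfkbie (-0.58). Across all genes 16.6% fell and 20.5% rose in this comparison. Apart from the target genes that fell, the list counts are near or below that background.

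Against the control arms one at a time, Tnfrsf1b was the gene called in both. Against WT TAM, Tnfrsf1b (log2 -0.92, adjusted p = 0.0343) and Traf1 (-1.09, adjusted p = 0.0256) fell in edgeR's quasi-likelihood test. Of all genes 18.1% fell there, and 38.6% were called in either direction. Against TG VEH, Tnfrsf1b (-1.02, adjusted p = 0.0428) and Birc3 (-0.71, adjusted p = 0.0275) fell in the same test. Of all genes 7.31% fell there, and 16.4% were called in either direction. These comparisons share the Ihh-deleted libraries, and with single libraries left out they gave 0 to 5 and 0 to 7 genes. Ihh-deleted and WT TAM mice differ in genotype, and Ihh-deleted and TG VEH mice in tamoxifen.

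The injury effect itself was not shown to differ between the Ihh-deleted and the intact arms for any of the 10 genes. By the interaction term of edgeR's quasi-likelihood test 0 of 10 were called, against 16.1% of all genes. Traf1 was at log2 -1.07 (SE 0.47, adjusted p = 0.112), Birc3 at -0.56 (SE 0.26, adjusted p = 0.134) and Tnfrsf1b at -0.87 (SE 0.43, adjusted p = 0.149). At an unadjusted p under 0.05 there were 2 of 10, and DESeq2 called 0. Leaving out Ihh-deleted injured library 4 gave 4 called genes, Traf1 (-1.77), Tnfrsf1b (-1.39), Birc3 (-0.84) and Nfkb1 (-0.59). In that fit the calls over all genes rose too, from 2836 to 4847, so the 16.1% is not its background.

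The control arms were not told apart by these genes. Between injured WT TAM and TG VEH kidneys 0 of 10 were called by edgeR or DESeq2, with 2 at an unadjusted p under 0.05, and 2.22% of all genes were called. The largest estimates were Tnfaip3 at log2 -0.64 (SE 0.38) and Nfkbia at -0.60 (SE 0.28, adjusted p = 0.329, edgeR quasi-likelihood test). In contralateral kidneys 0 of 10 were called between the Ihh-deleted and intact arms by either tool, with 0 at an unadjusted p under 0.05, and 0.00568% of all genes were called.

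Kidneys that remained after nephrectomy stood apart for the inhibitor genes. Nfkbia held 33.0, 88.5 and 89.1 CPM in nephrectomy libraries 1, 2 and 4, above all 12 contralateral libraries, at 14.4 to 23.8 CPM, and above the uninjured libraries, at 30.4 and 16.0 CPM. Tnfaip3 held 12.3, 52.6 and 57.2 CPM, against 7.67 to 14.0 CPM in contralateral and 5.07 and 6.76 CPM in uninjured libraries. The first uninjured value of each gene is from uninjured library 2, which held 0.592 M counts in total and so rests on few counts. The small gap between its 30.4 CPM of Nfkbia and the 33.0 CPM of nephrectomy library 1 therefore shows no separation. Nephrectomy library 1, the one with heart marker RNA, was the low one for both genes, and for Tnfaip3 it lay inside the contralateral range. The nephrectomy libraries were thus spread more widely for these genes than for the other members.

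Nfkbia and Tnfaip3 were the genes called between contralateral and nephrectomy kidneys. Both were lower in contralateral kidneys, Nfkbia by log2 -2.01 (SE 0.23, adjusted p = 3.66e-06) and Tnfaip3 by log2 -2.10 (SE 0.32, adjusted p = 0.000135) in edgeR's quasi-likelihood test, with 3.38% of all genes lower. Of the 10, Nfkbia was higher after nephrectomy with ranges apart, as were 2.01% of all genes. Tnfrsf1a, at 34.3, 38.9 and 35.2 CPM after nephrectomy and 41.4 to 50.2 CPM in contralateral libraries, was not called (adjusted p = 0.212, same test). The share of all genes that were lower after nephrectomy with ranges apart was not computed. Tnf was at 0.152, 0.143 and 0.240 CPM in nephrectomy libraries, inside its contralateral range, and Nfkb1 (39.8 to 43.3 CPM) and Birc3 (20.7 to 24.4 CPM) also lay inside theirs.

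**Figure D3:**
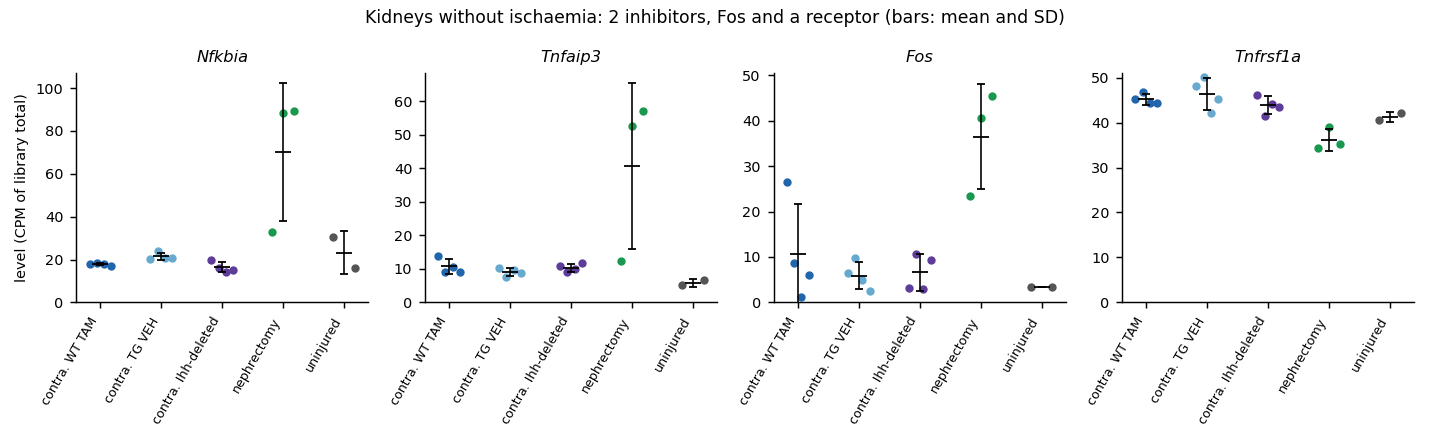
Points are single libraries in CPM on linear axes for Nfkbia, Tnfaip3, the immediate early gene Fos and Tnfrsf1a in contralateral, nephrectomy and uninjured kidneys, with bars for mean and SD. Nfkbia after nephrectomy, at 33.0 to 89.1 CPM, lies above the contralateral libraries at 14.4 to 23.8 CPM, while nephrectomy library 1 lies at 12.3 CPM for Tnfaip3, inside the contralateral range.

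Other genes and markers moved with the inhibitor genes in these kidneys. Of the target genes 7 were lower in contralateral than in nephrectomy kidneys and 0 higher, led by Cxcl1 (-4.93), Cxcl2 (-4.66), Cxcl10 (-2.80) and Il6 (-1.99), and Nfkbid (-2.23), Nfkbiz (-1.60) and Rel (-0.91) were lower as well. Immediate early genes, a group chosen after its values were seen, included Fos at 23.5 to 45.4 CPM after nephrectomy and 1.10 to 26.5 CPM in contralateral kidneys. Jun ranged from 110.0 to 367.8 CPM and from 25.1 to 89.4 CPM, and Atf3 from 9.06 to 20.2 CPM and from 0.335 to 4.22 CPM. Fosb, Junb, Egr1, Ier2 and Klf6 were in the same group but their levels are not given here. Fos, Jun and Atf3 therefore do not stand for the whole group, and no test is given for them. Neutrophil markers summed to 10.8 to 17.5 CPM after nephrectomy and 2.16 to 8.72 CPM in contralateral kidneys, while macrophage markers summed to 88.7 to 104.0 CPM and 114.2 to 236.8 CPM. The part of these in the levels of Nfkbia and Tnfaip3 was not tested, nor was that of the heart RNA in nephrectomy library 1.

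Against uninjured kidneys the nephrectomy values of Nfkbia (log2 1.96, SE 0.46, adjusted p = 0.0744) and Tnfaip3 (log2 2.77, SE 0.69, adjusted p = 0.096) did not pass edgeR's quasi-likelihood test with 3 and 2 libraries. There 0 of 10 were called, with 2 at an unadjusted p under 0.05, and 0.176% of all genes were called, whereas DESeq2 called both genes (adjusted p = 0.00505 and 0.00166). Without nephrectomy library 1, edgeR called both as well. Between contralateral and uninjured kidneys 0 of 10 were called by edgeR or DESeq2, with 0 at an unadjusted p under 0.05, and 0.426% of all genes were called. Injured kidneys against nephrectomy kidneys, which share the nephrectomy libraries with the comparison above, gave 8 of 10 genes higher, with 32.4% of all genes higher. The exceptions were Nfkbia (log2 -0.30, SE 0.25, adjusted p = 0.3) and Tnfaip3 (log2 0.34, SE 0.36, adjusted p = 0.41, same test). Without nephrectomy library 1, Nfkbia was lower in injured than in nephrectomy kidneys (log2 -0.65, adjusted p = 0.0264, same test).

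Single-cell libraries placed the members in cell classes. The injured library held 3063 cells with a median of 2014 UMIs and the uninjured library 1313 cells with a median of 2391 UMIs, and mitochondrial UMIs had medians of 5.97% and 23.6%. The libraries shared 8 barcodes. Clustering without the 10 genes gave 21 clusters in 12 classes, named "-like" from listed markers. The principal-like cluster also had the distal convoluted tubule markers Calb1 and Slc12a3 among its leading genes. No class was named for the distal convoluted tubule, so principal-like values may include such cells. There was 1 library per condition, so no test was made, and levels are UMI counts-per-million of the UMIs of a class (CPM), with exact Poisson intervals at 95% that cover counting error only.

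Tnf RNA was found in leukocyte-like cells of the injured library. Of its 25 UMIs, 10 were in macrophage-like cells (12.1 CPM, 95% interval 5.79 to 22.2), 7 in T cell-like cells (13.1 CPM, 5.25 to 26.9), 7 in dendritic-like cells (8.80 CPM, 3.54 to 18.1) and 1 in B cell-like cells. Proximal tubule-like cells held 0 of 2346107 UMIs, which on a floor of 3 counts allows up to 1.28 CPM. The smaller thick ascending limb-like class also held 0, which allows up to 19.9 CPM, so that a level like that of leukocytes was not detectable there. The 10 macrophage-like UMIs lay in the cluster led by C1qa (249 cells, 18.5 CPM, 8.86 to 34.0), and the Retnla cluster of 85 cells held 0, which allows up to 10.45 CPM on the same floor. These intervals overlap between macrophage-like, T cell-like and dendritic-like cells, so that no order among them was shown.

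**Figure D4:**
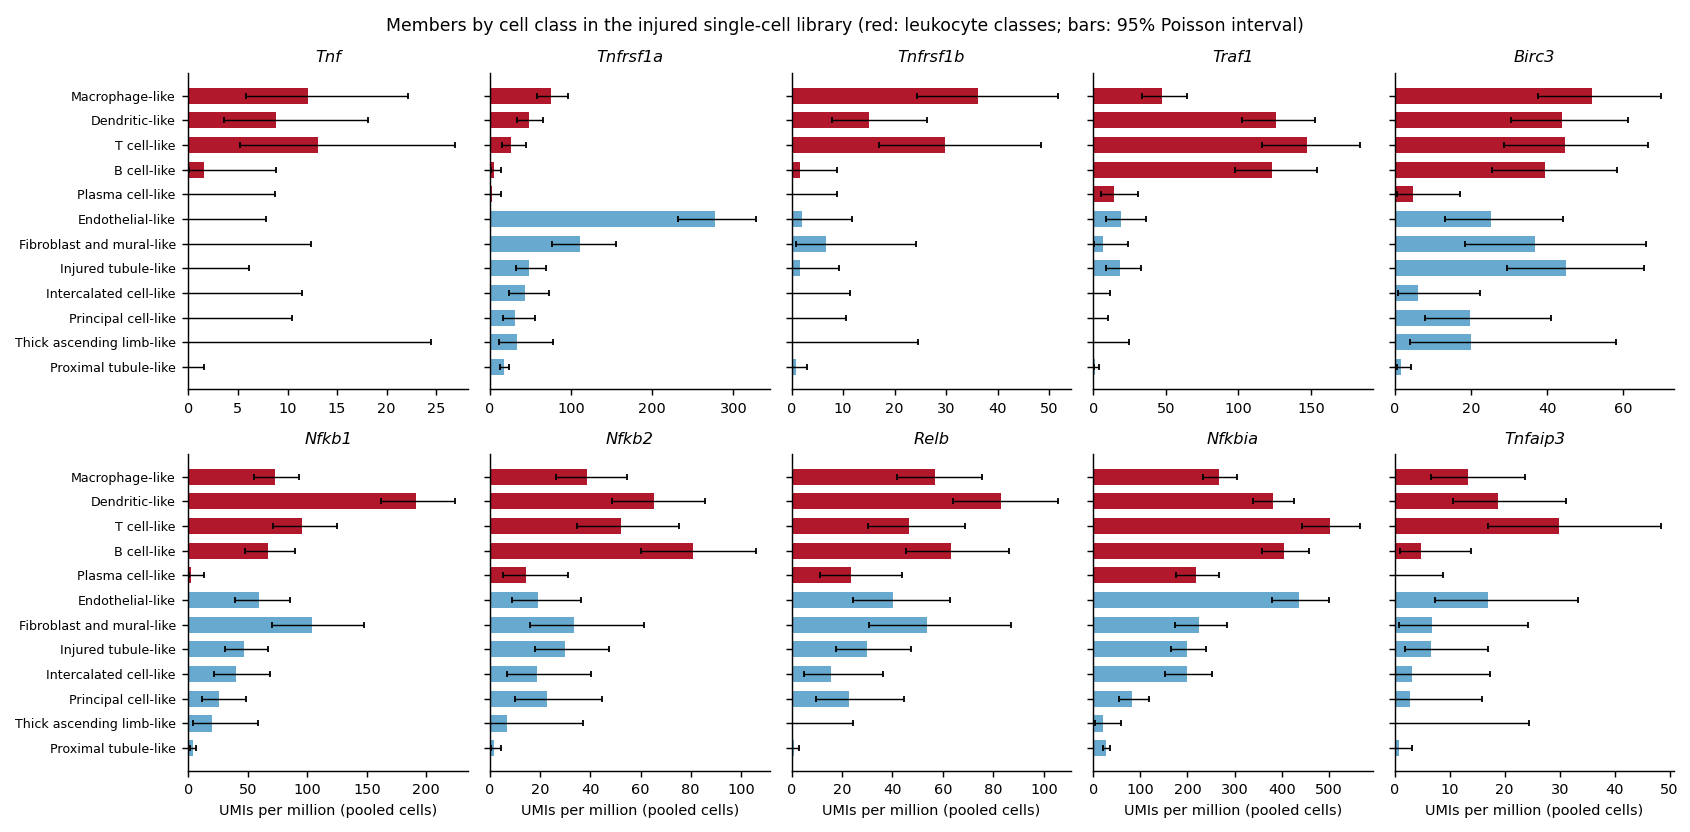
Bars give UMI levels (CPM of pooled cells) of each of the 10 genes by cell class of the injured library, red for leukocyte-like classes, with exact 95% Poisson intervals. Tnfrsf1a is highest in endothelial-like cells at 277 CPM, whereas Traf1 is at 147 CPM in T cell-like, 126 CPM in dendritic-like and 123.5 CPM in B cell-like cells.

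The receptor transcripts lay in different classes. Tnfrsf1a was highest in endothelial-like cells (277 CPM, 231 to 328) and lower in fibroblast and mural-like (110.5), macrophage-like (74.9), proximal tubule-like (17.5, 12.5 to 23.7) and B cell-like (4.75) cells. Tnfrsf1b was at 36.2 in macrophage-like (24.4 to 51.7), 29.8 in T cell-like and 15.1 in dendritic-like cells, with overlapping intervals, and was at most 6.70 in the others. Leukocyte-like classes, with 1270 of 3063 cells and 41.4% of all UMIs, held 90.8% of Tnfrsf1b UMIs but 30.9% of Tnfrsf1a UMIs (exact binomial interval 26.3 to 35.8).

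Most of the other genes were likewise concentrated in leukocyte-like classes. Their share of UMIs was 100% for Tnf (86.3 to 100), 92.4% for Traf1, 75.1% for Nfkb2, 73.4% for Relb, 71.8% for Nfkb1, 71.4% for Tnfaip3, 67.3% for Nfkbia and 66.2% for Birc3, so that 9 of 10 lay above the 41.4% of all UMIs. Traf1 was at 147 CPM in T cell-like cells (117 to 184), 126 in dendritic-like, 123.5 in B cell-like and 1.28 in proximal tubule-like cells. In dendritic-like cells Nfkb1 was at 191 CPM (162 to 224), above the intervals of all other classes, and Relb at 83.0 CPM (64.2 to 106). The Relb interval overlaps those of several classes, among them B cell-like cells at 63.3 CPM and T cell-like cells at 46.6 CPM (30.2 to 68.8). Within the dendritic-like class the Cd209a cluster held 243 CPM of Nfkb1 and 108 CPM of Relb, and the Naaa cluster 64.8 and 21.6. Nfkb2 was at 80.8 CPM in B cell-like (60.1 to 106), 65.4 CPM in dendritic-like (48.8 to 85.7) and 52.2 CPM in T cell-like cells (34.7 to 75.4), with overlapping intervals.

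Birc3 was spread over several classes, with 51.9 CPM in macrophage-like cells and 44.9 (29.6 to 65.3) in injured tubule-like cells, against 1.71 in proximal tubule-like cells. Intercalated-like cells held 6.195, and principal-like and thick ascending limb-like cells 19.9 each. Injured tubule-like cells thus had the highest value of the epithelial classes, with an interval that overlaps those of the principal-like and thick ascending limb-like classes. The injured tubule-like cluster was led by Cryab, Lcn2, Fst, Bst1 and Spp1, and 1 listed marker of the class was among its leading genes. It also held 32 cells of the uninjured library, so the name does not establish that its cells were injured. Nfkbia was widespread, from 502 CPM in T cell-like (443 to 565) and 437 in endothelial-like cells (380 to 501) to 27.3 in proximal tubule-like (21.01 to 34.8) and 19.9 in thick ascending limb-like cells (3 UMIs, 4.10 to 58.1). Tnfaip3 reached 29.8 CPM in T cell-like, 18.9 in dendritic-like and 16.9 in endothelial-like cells, and 0.853 in proximal tubule-like cells.

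The same class could be set side by side in both libraries for 6 classes with at least 30 cells in each, all endothelial-like or epithelial. For the 9 genes listed in both tables the intervals overlapped in 52 of 54 combinations of gene and class. Many of these held few UMIs, or 0 in both libraries, as for Traf1 in principal-like cells. Their intervals could hardly fail to overlap, so the overlap does not show that levels were alike. In 2 combinations the intervals did not overlap, both higher in the injured library. Those were Tnfrsf1a in proximal tubule-like cells, at 17.5 CPM (12.5 to 23.7) in 910 injured-library cells and 8.09 CPM (5.33 to 11.8) in 1047 uninjured-library cells, and Nfkbia in intercalated-like cells, at 198.2 CPM (152.7 to 253.1) in 89 cells and 52.7 CPM (21.2 to 108.7) in 32 cells. The UMI totals behind these levels include mitochondrial UMIs, with medians of 5.97% in the injured and 23.6% in the uninjured library. Their part in these 2 differences was not tested. The intercalated-like cluster also had the erythroid markers Hbb-bs and Hba-a1 among its leading genes. The part of erythroid RNA in the Nfkbia difference was not tested either. In endothelial-like cells Tnfrsf1a was at 277 and 193 CPM (113 to 310) and Nfkbia at 437 and 592 CPM (442 to 776), in the injured and the uninjured library, with overlapping intervals. The B cell-like cells of the injured library held 4.75 CPM of Tnfrsf1a, and the part of free RNA in such low levels was not tested. Leukocyte-like classes made up 39 cells of the uninjured library (2.97%) and held 1.91% of its UMIs, 15.7% of its Nfkbia UMIs and 9.23% of its Tnfrsf1a UMIs.

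Across the 29 bulk libraries, which fall into injured kidneys and others, the genes most like Tnf in Spearman correlation of log2 CPM were Mob3a (0.941), Ptpn22 (0.939), Tlr2 (0.936), Stk17b (0.929) and Cd8a (0.929), among 13214 genes. Those most like Nfkbia were Nedd9 (0.891), Junb (0.879), Dusp5 (0.873), Dusp8 (0.867) and Pmaip1 (0.860). Those most like Tnfrsf1a were C1qb (0.920), Cmtm3 (0.918), Rhoj (0.916), Vat1 (0.915) and Cxcl16 (0.915). Among the members, Tnf and Tnfrsf1b (0.913), Tnfrsf1b and Relb (0.898) and Tnf and Relb (0.887) ranked libraries most alike. These values describe libraries that share the injury contrast and carry no test.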

How the data were processed

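Bulk RNA of 8 kidney groups and 2 single-cell libraries was measured. The authors deposited bulk expected counts per transcript, made with Salmon 1.4 on GRCm38 or mm10, and UMI counts per gene and barcode made with Cell Ranger and STAR, per the submitters' processing notes and the labels' protocols. Single-cell tables were assigned to samples by table name. Of 105833 transcripts, 105281 were found in GENCODE M21 and summed to 33714 genes and rounded. The other 552 held 0.185% of counts and were left out. The 4 numbered columns of a bulk sample were taken as libraries. The 10 genes, the pathway and marker lists and the 3 libraries left out were chosen with earlier results of these data known.

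Counts were tested with edgeR 4.0.16 in R 4.3.3 (filterByExpr, TMM, 1 coefficient per group over 29 libraries, quasi-likelihood test, Benjamini-Hochberg threshold 0.05). CPM values use library totals, and TPM values were computed here from the counts. All 10 genes were named in every comparison, and from each pathway list at most 4 genes past the threshold with the largest change. Other settings were RLE factors, no low-count filter, all 32 libraries, only the groups compared, DESeq2 1.42.0, each library left out, a block by library number and, added after the data were seen, library totals without TMM factors and an unblocked fit of the same 24 libraries. Libraries with the same number were not taken as pairs, since their correlation ran from -0.191 to 0.181 over 12 pairs, which does not exclude pairing. The closest libraries of a group differed by a chi-square of 1.945 per gene, so none was a duplicate. On simulated counts, the injured against contralateral fit of 17535 genes recovered 92% of genes changed 2-fold, and 5.43% of its calls were false. For Ihh-deleted against intact injured kidneys (17536 genes) 74% at 2-fold and 34% at 1.5-fold were recovered, with 4.43% of calls false. The simulations changed 50 genes at each fold, in random directions, and left most genes equal. In the real comparisons 73.7% and 37.1% of genes were called, so these rates need not carry over to them.

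Cells were clustered with scanpy 1.11.5 without the 10 genes (2000 variable genes, 30 components, 15 neighbours, resolution 1). A cluster was named from at least 3 listed markers with at least 10 UMIs and a fold of 2. Scrublet marked 5 and 3 cells as doublets, which were kept.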

Additional observations from a re-analysis of the deposited data

Results flagged for a closer look

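Nfkbia in contralateral TG VEH library 2 stood at 23.8 CPM, while the other libraries of that group held 20.4 to 20.8 CPM. Of 60 gene and group combinations examined for a library far from the others, this was the 1 found, and chance alone gives about 1 in 20. The 3 libraries with a heart profile were used in no comparison. In those libraries 3 of the 10 genes, Tnf, Tnfrsf1b and Nfkb1, were above both uninjured libraries used, as were 27.8% of all genes tested. For Tnf the uninjured libraries held 0 counts at depths of 0.592 M and 7.55 M, while those left out held 27.3 M to 33.7 M, so that any count lay above them.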

How the results depend on the processing

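The number of the 10 genes called moved as follows. For Ihh-deleted against intact injured kidneys, 2 genes became 0 with all 32 libraries, 4 with RLE factors, 6 with library totals, 0 with only the groups compared and 6 with DESeq2, and 0 to 6 with single libraries left out. The difference in injury effect, 0 genes, became 1 with library totals (Tnfrsf1a, -0.40) and 0 to 4 with single libraries left out. Contralateral against uninjured kidneys, 0 genes, gave 2 with all 32 libraries, where Tnfrsf1b reversed to -0.92. Nephrectomy against uninjured kidneys, 0 genes, gave 2 with all 32 libraries, 2 with DESeq2 and 0 to 2 with single libraries left out. Leaving out single libraries gave 9 to 10 genes for injury in the Ihh-deleted arm and 8 to 9 for injured against nephrectomy kidneys. Against single control arms, 2 genes each, all 32 libraries or only the groups compared gave 0, and against TG VEH no low-count filter gave 1, DESeq2 4 and library totals 6. Counts over all genes also moved, most of all Ihh-deleted against TG VEH, from 2883 to 0 with all 32 libraries or only the groups compared and to 180 to 5116 with a library left out. Other moves were Ihh-deleted against intact injured kidneys from 6539 to 1657, the difference in injury effect from 2836 to 167 and contralateral against uninjured kidneys from 75 to 6007 with all 32 libraries, and nephrectomy against uninjured kidneys from 31 to 114 and contralateral Ihh-deleted against intact kidneys from 1 to 86 with DESeq2. With a library left out the difference in injury effect gave 848 to 4847, Ihh-deleted against intact injured kidneys 3527 to 7591 and contralateral against nephrectomy kidneys, 989, gave 315 to 1692. The cause of these shifts was not tested.

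With a replicate block by library number on 24 libraries, 10 genes were called for injury over the 3 arms and in each arm, and 0 for the difference in injury effect; the block changed no call on the 10 genes. Whether libraries with the same number come from the same mouse was not established. The same number was the best match in 5 of 12 pairs, and a weak correlation cannot exclude pairing. Of the single-gene values, 898 of 936 under other settings and 1632 of 1690 with a library left out kept their direction and side of the threshold. The single-cell count of 9 genes above the leukocyte share of UMIs held in every setting. Depth limits Tnf most, with 80 counts over 12 contralateral libraries and 25 single-cell UMIs.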
